A study of Rattus norvegicus with 4 samples.

Results

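The genes described here belong to the myelin sheath and to the Schwann cells around vestibular nerve fibres: Pmp22, Mbp, Prx, Mag, Cnp, Mal, Gldn and Ncam1. They were taken by their current rat symbol. The 8 genes, of 12323 named ones, were read by 10 of the 33849 gene probes on the array. The tissue was the rat crista ampullaris, a ridge of hair cells and supporting cells at the base of each semicircular canal, which senses turning of the head. Laser capture took 2 layers of it. The supporting cell layer, with 2 arrays, holds the bodies of the supporting cells lying on the basal lamina. The hair cell layer, also with 2 arrays, is the superficial part with type I and type II hair cells, the calyx endings of afferent nerve fibres and the cytoplasm of supporting cells that reaches between them. Polyadenylated RNA was amplified linearly and hybridised to single-colour oligonucleotide arrays. The 2 layers differ by where they were cut and not by any treatment. Strain, age and the number of animals are not given in the sources used here. The samples are not said to be separate animals or captures, so the p-values measure the spread between these arrays, which may be technical.

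Schwann cells wrap peripheral axons in a multilayered membrane that speeds conduction. Afferent fibres of the vestibular nerve are myelinated in the connective tissue under the crista, lose the sheath as they cross the basal lamina, and run without myelin inside the epithelium to end on hair cells. Neither captured layer is therefore named for the place where the sheath lies. Several of the 8 genes are also known outside myelin, in epithelia and neurons, so their signal in a layer does not by itself identify a Schwann cell. In tissue of this kind, fewer cells of a type and less RNA per cell cannot be told apart.

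The scanner software detected 13474 (39.8%) and 13430 (39.7%) of the gene probes on the supporting cell layer arrays, against 16511 (48.8%) and 15420 (45.6%) on the hair cell layer arrays. Median raw intensities were 12.1 and 12.0 for the supporting cell layer, against 26.5 and 16.98 for the hair cell layer. Among the 5740 genes detected on all 4 arrays, the median ratio of raw intensity, supporting cell layer over hair cell layer, was 0.637, and 80.6% of these genes were dimmer in the supporting cell layer. A lower raw intensity in that layer is thus the usual case. The arrays were therefore brought to one distribution (quantile normalization) before testing, and each change is a log2 difference, supporting cell layer minus hair cell layer, given with its limma standard error (2 arrays per layer). A gene was called at a Benjamini-Hochberg adjusted p under 0.05 over all 16483 tested probes. Of hair cell markers, 9 of 10 tested were called lower in the supporting cell layer. Of supporting cell markers, 7 of 12 were called higher there and 3 lower. Over all tested genes 28.2% were called higher and 37.3% lower. Among the called hair cell markers, Cdh23 and Espn were detected in the hair cell layer only. The lists were chosen with earlier results of these data known, so these counts are no independent check of the capture.

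The 8 genes did not move together between the layers. Prx, which encodes periaxin on the outer face of the Schwann cell, was called higher in the supporting cell layer. Pmp22, Cnp and Ncam1 were called lower there, Ncam1 having been detected in the hair cell layer only. Mag, Mal and Gldn were detected on all 4 arrays and did not pass the test, and no probe for Mbp was detected. Thus 1 of 7 tested genes was called higher and 3 were called lower. Over all 7768 tested genes, 65.5% were called, 28.2% higher and 37.3% lower in the supporting cell layer (67.4% over all tested probes), so these counts lie near the background of the array. The 4 normalized values did not overlap between layers for 6 of the 7 genes, all but Mal, and for 89.1% of all tested genes with 4 values. The median change of the 7 tested genes was 0.18, against -0.11 over all tested genes. Over probes detected on all 4 arrays, as all of the 7 but Ncam1 were, the median was 0.16, near that of the 7 genes.

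**Figure D1:**
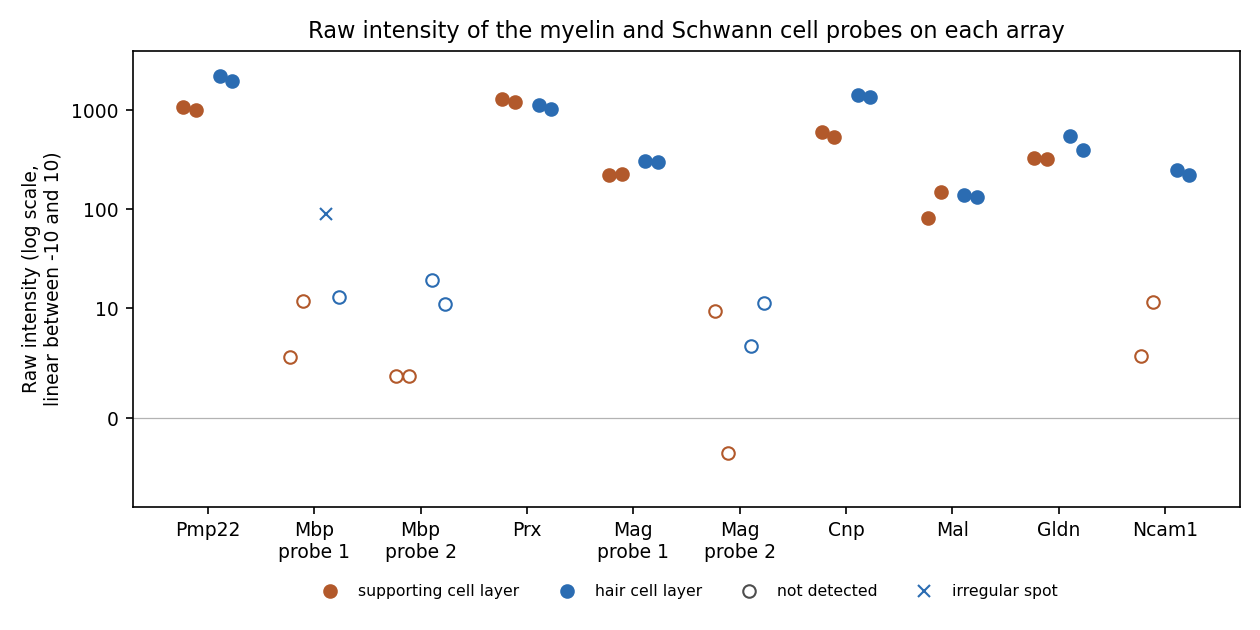
Raw intensity (log axis, linear near 0) of the 10 probes, with 2 arrays per layer as points, the supporting cell layer left of the hair cell layer. Filled points were detected, open points were not, and the cross is an irregular spot. Ncam1 has filled points for the hair cell layer only, and neither Mbp probe has any.

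Among proteins of compact myelin, Pmp22 encodes peripheral myelin protein 22, a small membrane protein of the tightly packed sheath that is also found at junctions of epithelial cells. The gene lies on chromosome 10 from 48294932 to 48324941 in GRCr8. Its raw intensity was 1087 and 999 in the supporting cell layer, against 2248 and 2002 in the hair cell layer. The layers did not overlap, and the probe was detected on all 4 arrays. After normalization the intensities were 1381 and 1347 in the supporting cell layer and 1705 and 1693 in the hair cell layer. The change was -0.32 ± 0.07 (limma adjusted p = 0.0271), a 1.25-fold higher signal in the hair cell layer. Most of the raw difference was thus shared with the array as a whole. The direction held under every scaling tried, but the call was lost with median scaling (adjusted p = 0.538), with the scanner software's normalized intensity (0.744), without any filter on dim probes (0.204) and whenever 1 array was left out. Without hair cell layer replicate 1 and 2 the adjusted p was 0.104 and 0.0989, and without supporting cell layer replicate 1 and 2 it was 0.0718 and 0.0894.

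Mbp encodes myelin basic protein, which holds the cytoplasmic faces of compact myelin together. Its gene lies on chromosome 18 from 78130652 to 78241174. The probe built on its reference transcript read 5.62 and 11.9 in the supporting cell layer, against 89.7 and 13.03 in the hair cell layer. The value of 89.7 came from a spot that the scanner marked as irregular, and the other 3 values were not above background. The other Mbp probe, built on an expressed sequence tag, read 3.89 and 3.83 in the supporting cell layer and 19.2 and 11.2 in the hair cell layer, with no spot detected. Negative control spots had median intensities of 4.28 and 4.15 for the supporting cell layer and 5.36 and 4.78 for the hair cell layer. No difference in Mbp was detectable at this signal, and the gene was not tested.

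Prx and Mag mark opposite faces of the Schwann cell around a myelinated axon. Periaxin, the product of Prx, is a scaffold of the outer membrane that links the cell to its basal lamina through dystroglycan. Prx lies on chromosome 1 from 91912669 to 91934754. Its raw intensity was 1308 and 1213 in the supporting cell layer, against 1133 and 1036 in the hair cell layer. Every supporting cell layer value lay above both hair cell layer values even before scaling, although most genes were dimmer there. Normalized intensities were 1690 and 1657 in the supporting cell layer and 867 and 886 in the hair cell layer. The change was 0.93 ± 0.07 (limma adjusted p = 0.00291), a 1.91-fold higher signal in the supporting cell layer. The direction held under each scaling. The adjusted p was 0.0584 with the scanner software's normalized intensity and 0.216 with no scaling between arrays, where the change was 0.22 and the median of all tested probes -0.67.

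Mag encodes myelin-associated glycoprotein, an adhesion protein of the inner membrane that faces the axon. Mag lies on chromosome 1 from 95275728 to 95291133. Its transcript probe read 225 on each supporting cell layer array, against 309 and 302 on the hair cell layer arrays. Normalized intensities were 291 and 303 in the supporting cell layer and 235 and 258 in the hair cell layer, so the order of the layers turned with scaling. The normalized change of 0.27 ± 0.09 did not pass (limma adjusted p = 0.0696), with a 95% interval from -0.0003 to 0.54. Mag passed among probes detected on all 4 arrays (0.0314) and with an intensity trend and robust prior (0.0170), and without scaling it was called the other way, at -0.44 (0.0336), where the median of all tested probes was -0.67. The other Mag probe, built on an expressed sequence tag, was detected on 0 of 4 arrays.

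Cnp encodes 2',3'-cyclic nucleotide 3'-phosphodiesterase, an enzyme of the cytoplasm-filled parts of the sheath that binds membrane and cytoskeleton. It lies on chromosome 10 from 86011504 to 86018063. Its raw intensity was 599 and 533 in the supporting cell layer, against 1439 and 1369 in the hair cell layer. Normalized intensities were 773 and 733 in the supporting cell layer and 1100 and 1177 in the hair cell layer. The layers did not overlap on either scale. The change was -0.60 ± 0.08 (limma adjusted p = 0.00996), a 1.51-fold higher signal in the hair cell layer. The direction held under every scaling. The adjusted p was 0.175 with median scaling, 0.404 with the scanner software's normalized intensity, 0.0828 without a filter on dim probes and 0.0544 without hair cell layer replicate 2.

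Mal encodes a small proteolipid of membrane rafts that sorts cargo to the myelin membrane and, in polarised epithelia, to the apical surface. It lies on chromosome 3 from 135317664 to 135341423. Its raw intensity was 81.9 and 148 in the supporting cell layer, against 141 and 135 in the hair cell layer. The supporting cell layer arrays thus lay on either side of the hair cell layer arrays. The normalized change was 0.35 ± 0.36 and did not pass (limma adjusted p = 0.440), with a 95% interval from -0.75 to 1.45. It was 0.80 (0.0254) without supporting cell layer replicate 1 and -0.11 (0.514) without replicate 2, so that 1 array set its value. Each of these p-values takes the lone array left to vary like those of the other layer, while the pair in fact disagreed, so no call is drawn from them.

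The remaining members act at contacts with the axon. Gldn encodes gliomedin, a secreted and membrane protein of Schwann cell microvilli that gathers neurofascin and NrCAM at the node of Ranvier. Gldn lies on chromosome 8 from 63575270 to 63619346. Its raw intensity was 334 and 320 in the supporting cell layer, against 548 and 402 in the hair cell layer. Normalized intensities were 426 and 434 in the supporting cell layer and 415 and 348 in the hair cell layer. The normalized change of 0.18 ± 0.12 did not pass (limma adjusted p = 0.261), with a 95% interval from -0.19 to 0.54. Without scaling the value was -0.52, against a median of -0.67 over all tested probes and -0.52 over probes detected on all 4 arrays.

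Ncam1 encodes neural cell adhesion molecule 1, which is carried by axons, by Schwann cells without myelin and by many cells of the developing ear. It lies on chromosome 8 from 58762088 to 59062131. Its raw intensity was 5.71 and 11.6 in the supporting cell layer, not above background, against 252 and 222 in the hair cell layer. Of the 7 tested genes it alone was detected in 1 layer only. The lowest detected normalized intensity was 26.6 and 28.3 for the supporting cell layer, and with that limit the hair cell layer signal was higher by at least 7.02-fold. The call (limma adjusted p = 0.00722) came from a fit to the background values themselves, with a change of -4.25, and not from this limit. Ncam1 passed the filter only through the hair cell layer, so its call is no separate evidence of the difference. The adjusted p was 0.0575 and 0.0562 without hair cell layer replicate 1 and 2, with the same direction.

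**Figure D2:**
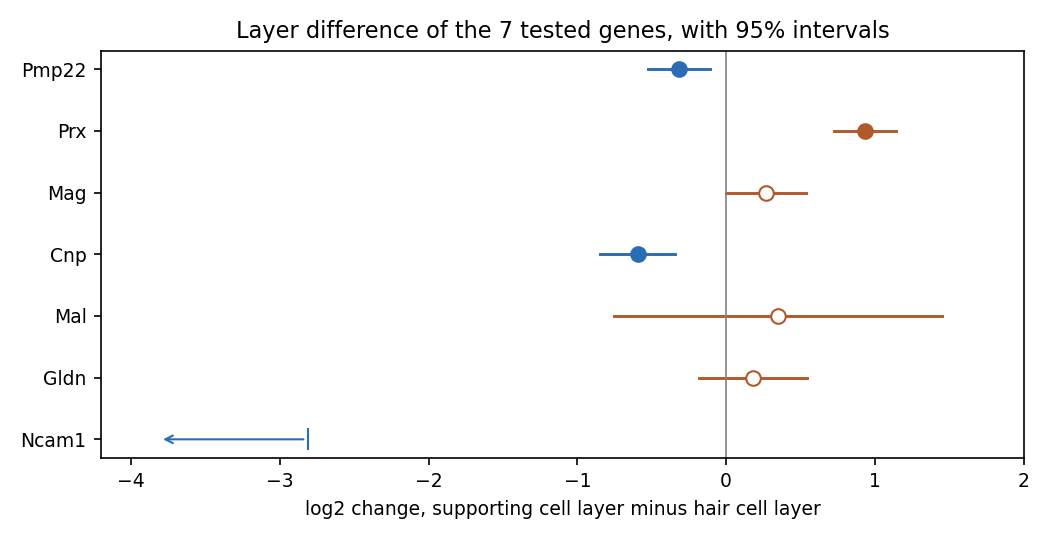
Change on the log2 scale, supporting cell layer minus hair cell layer, for the 7 tested genes, with 95% intervals from limma. Filled points passed at an adjusted p under 0.05, and the Ncam1 bar is a lower limit, with the arrow pointing to larger differences. Prx lies at 0.93, while Pmp22 and Cnp lie at -0.32 and -0.60.

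Without any scaling between arrays the median change of all tested probes was -0.67, against 0.01 with quantile normalization and 0.14 with the scanner software's scaling. The changes of Mag (-0.44), Mal (-0.32) and Gldn (-0.52) were then negative too but lay above that median. Over probes detected on all 4 arrays, as these genes were, the median without scaling was -0.52, about the value of Gldn. Under quantile, 75th percentile, median and scanner software scaling the changes of Mag, Mal and Gldn were positive. Without scaling the medians shifted downward as well, and the cause of the change of sign was not tested. The change of Prx relative to the other genes detected on all 4 arrays did not need a scaling factor. A ratio of 2 raw probe values within an array is free of such a factor, but not of array differences that depend on intensity. Relative to Pmp22 on the same array, Prx was higher in the supporting cell layer by 1.24 on the log2 scale, and the 4 pairs of arrays from different layers gave 1.22 to 1.27. Relative to Cnp, Prx was higher there by 1.53 (1.47 to 1.59). Relative to Mag, Gldn and Mal it was higher by 0.66 (0.56 to 0.76), 0.74 (0.56 to 0.92) and 0.54 (0.02 to 1.06). Prx was set against the others because its change was the highest, which fixes the sign of these ratios, and they are given as a description. For Mal the range nearly reaches 0. With 2 arrays against 2 an exact permutation test cannot go below 0.333, so no p-value is given for these ratios.

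**Figure D3:**
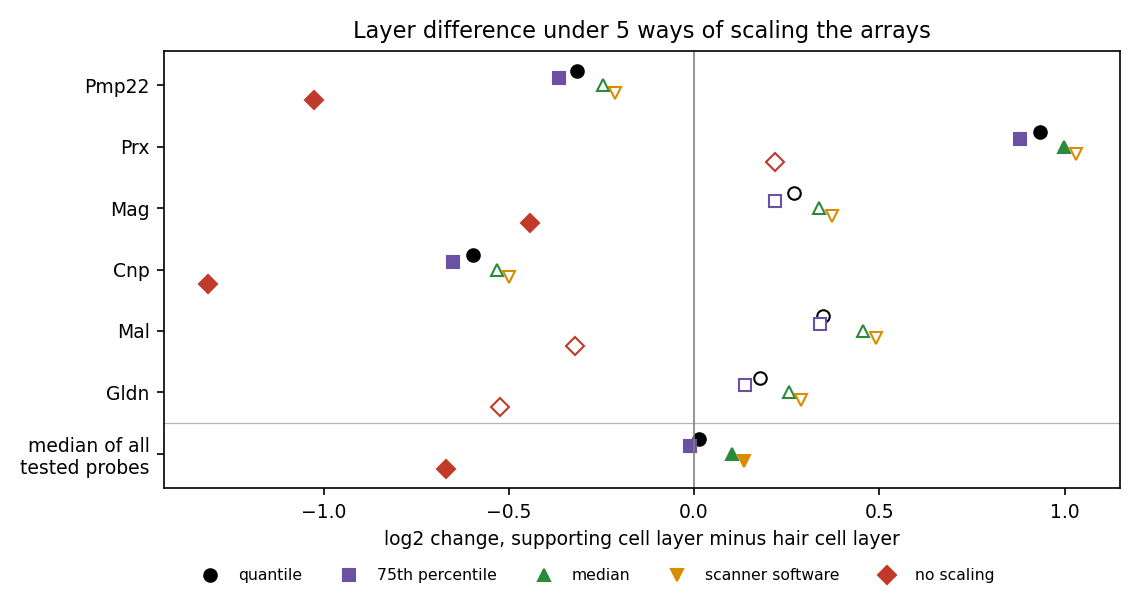
Change on the log2 scale, supporting cell layer minus hair cell layer, of the 6 genes detected on all 4 arrays under 5 ways of scaling, with the median of all tested probes in the bottom row. Filled symbols of a gene passed at an adjusted p under 0.05. Prx lies right of 0 and Pmp22 and Cnp left of 0 throughout, while Mag, Mal and Gldn lie left of 0 without scaling, where the median of all tested probes lies at -0.67.

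The promoters of the 3 genes that were detected on all arrays and passed the test are shown to set the gene that was higher in the supporting cell layer beside those that were lower. RefSeq windows on GRCr8, from 250 bases before to 50 after a transcript start, matched 7 of the 8 genes. They were searched on both strands for ACAAAG, a core of SOX factor sites, and for GCGNGGGCG, a site of EGR factors, since SOX10 and EGR2 drive myelin genes in Schwann cells. The motifs do not overlap each other, and matches are in capitals. The Prx window is chr1:91914171-91914470, the Pmp22 window chr10:48294682-48294981 and the Cnp window chr10:86011254-86011553, all on the plus strand. Unlike those of Pmp22 and Cnp, the Prx window lies inside the gene, which begins at 91912669. It belongs to an internal transcript start, and the outer start of Prx was not searched.
Prx: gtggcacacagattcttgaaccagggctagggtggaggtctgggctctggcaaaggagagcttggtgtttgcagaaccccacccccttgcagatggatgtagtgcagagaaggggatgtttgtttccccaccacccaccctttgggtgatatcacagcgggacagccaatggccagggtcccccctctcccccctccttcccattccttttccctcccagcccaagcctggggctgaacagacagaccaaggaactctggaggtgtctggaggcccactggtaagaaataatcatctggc
Pmp22: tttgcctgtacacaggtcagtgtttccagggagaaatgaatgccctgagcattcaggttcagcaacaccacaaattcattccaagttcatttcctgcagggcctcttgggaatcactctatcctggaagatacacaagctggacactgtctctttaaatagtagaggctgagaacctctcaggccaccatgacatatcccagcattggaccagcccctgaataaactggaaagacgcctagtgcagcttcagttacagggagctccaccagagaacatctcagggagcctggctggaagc
Cnp: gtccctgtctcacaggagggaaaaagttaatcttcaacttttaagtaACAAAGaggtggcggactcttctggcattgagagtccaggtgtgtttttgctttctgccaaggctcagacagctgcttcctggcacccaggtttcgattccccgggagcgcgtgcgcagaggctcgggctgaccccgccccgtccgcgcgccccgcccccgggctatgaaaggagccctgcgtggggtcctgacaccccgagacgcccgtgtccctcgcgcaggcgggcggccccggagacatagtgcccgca
Only the Cnp window of these 3 held ACAAAG, at 203 bases before the start, and none of the 3 held GCGNGGGCG. Of all 33469 windows 18.8% held ACAAAG and 4.98% held GCGNGGGCG. A match is a run of letters and no evidence of binding, and a missing match says nothing of the factor.

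Other genes of myelin and Schwann cells were also called in both directions. Of 10 tested sheath genes outside the 8, 1 was called higher in the supporting cell layer, 4 were called lower and 5 did not pass, with a median change of 0.16. Over all tested genes 28.2% were called higher and 37.3% lower, with a median change of -0.11. Calls in both directions are thus the usual case on these arrays, in this list and in those that follow. Over probes detected on all 4 arrays the median change was 0.16, so a list median above -0.11 is no excess by itself. Ndrg1, mutated in a demyelinating neuropathy, was higher there by 1.37 ± 0.09, with raw intensities of 2665 on each supporting cell layer array, against 1729 and 1412 on the hair cell layer arrays. Tspan2, a tetraspanin of myelin membranes, was lower there by -1.97 ± 0.07, with 224 and 213 in the supporting cell layer and 1487 and 1302 in the hair cell layer. Cd9, another tetraspanin, and the phosphoinositide phosphatase gene Mtmr2 were also lower, by -0.51 ± 0.08 and -0.73 ± 0.12. The neuropathy gene Sh3tc2 was called lower too, but its hair cell layer signal lay too near the detection limit to give a fold. Cldn11, the tight junction claudin of central myelin, had a value of 0.07 ± 0.07 and did not pass, nor did the connexin gene Gjb1 of Schwann cells at 0.37 ± 0.29. Mog, Mobp, Opalin, Ermn, Ugt8 and Aspa, mostly genes of oligodendrocytes, were not detected on any array. The Mog spot on supporting cell layer replicate 2, with a raw intensity of 452, was left out as contaminated.

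Regulators and signals of Schwann cells were called in both directions, 6 of 12 tested higher in the supporting cell layer and 5 lower, with a median change of 0.32 (28.2% and 37.3% over all tested genes, median -0.11). The transcription factor genes Sox10 (-1.73 ± 0.13) and Egr2 (-0.60 ± 0.14) and the Schwann cell signal Dhh (-1.70 ± 0.08) were lower there. Sox10 is also a gene of inner ear supporting cells. Lgi4, a secreted Schwann cell protein needed for myelination, was higher there by 1.53 ± 0.08, with 221 and 231 in the supporting cell layer and 137 and 118 in the hair cell layer. The EGR co-factor gene Nab1 (0.61 ± 0.12), Yy1 (0.55 ± 0.09), Id2 (0.95 ± 0.18) and Id4 (0.93 ± 0.14) were also higher, the last with 1 supporting cell layer spot left out as irregular, and Zeb2 was at least 5.16-fold higher. The neuregulin receptor genes split, with Erbb2 lower by -0.38 ± 0.08 and Erbb3 at 0.08 ± 0.10 without passing. Nrg1, Ngfr and Pou3f1 were not detected on any array.

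Partners of gliomedin and of the internode were called higher in 5 and lower in 2 of 9 tested genes, with a median change of 0.41 (28.2% and 37.3% over all tested genes, median -0.11). Pals2, a membrane scaffold of Schwann cells, had 740 and 703 in the supporting cell layer, against 61.2 and 53.5 in the hair cell layer, a change of 4.33 ± 0.08. Epb41l2, a cytoskeletal linker of the sheath, was higher by 0.74 ± 0.08, and the nodal spectrin Sptbn4 and sodium channel Scn8a by 0.75 ± 0.10 and 0.76 ± 0.16. The 2 axonal ligands of gliomedin were less clear, because their probes disagreed. Nfasc was higher by 0.41 ± 0.08 at its brighter tested probe and lower by -0.33 ± 0.08 at the other. Nrcam was higher in the hair cell layer by at least 6.24-fold at its brightest probe, while another, detected in the supporting cell layer alone, gave a lower limit of 2.61-fold on that side and did not pass (limma adjusted p = 0.0633). Cntnap1, the paranodal axon protein, did not pass, with signal above background on the hair cell layer arrays only.

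Among partners of periaxin and receptors for the Schwann cell basal lamina, 1 of 6 tested was called higher and 2 lower, near the shares over all tested genes (28.2% and 37.3%). Dag1, the gene of dystroglycan, was at least 2.59-fold higher there. The laminin receptor subunits Itga6 (-1.03 ± 0.10) and Itgb4 (-1.30 ± 0.08) were lower there, and are also integrins of epithelial cells. Drp2, which joins periaxin to dystroglycan, was not detected. Of the relatives of Ncam1 on the array, L1cam and the polysialyltransferase genes St8sia2 and St8sia4, none was detected on any array.

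Markers of other cells that could carry or touch these transcripts also differed between layers, and their part in the results above was not tested. For comparison, 28.2% of all tested genes passed on the supporting cell layer side and 37.3% on the other. A called gene is thus the usual case, and no list was tested for an excess over these shares. Of 6 markers of Schwann cells without myelin and of satellite glia, S100b (0.74 ± 0.09) and Fabp7 (1.19 ± 0.30) passed on the supporting cell layer side, Plekhb1 did not pass, and Gfap, Cdh19 and Gpr37l1 were undetected on all 4 arrays. Sums were taken over the genes of a list with values on all 4 arrays, tested or not. The summed normalized intensity of these markers was 1068 and 987 in the supporting cell layer, against 966 and 1041 in the hair cell layer. Plekhb1 alone gave 818 and 730 of this in the supporting cell layer, and 838 and 875 in the hair cell layer. Of 7 tested nerve fibre markers 5 were called on the supporting cell layer side, with Gap43 at 0.91 ± 0.08, and the neurofilament genes Nefl and Nefm were lower, at least 3.17-fold and 1.60-fold. The summed normalized intensity of the nerve fibre markers was 1488 and 1534 in the supporting cell layer and 690.0 and 696 in the hair cell layer. Gria2 alone gave 575 and 574 of this in the supporting cell layer, and 33.6 and 42.1 in the hair cell layer. Connective tissue markers, with 3 called higher and 1 lower of 6 tested, summed to 2317 and 2363 in the supporting cell layer and 991 and 1009 in the hair cell layer. Of 6 tested endothelial markers 4 were called higher and 1 lower. The 6 with values on all arrays, 1 of them untested, summed to 977 and 992 in the supporting cell layer and 466 and 533 in the hair cell layer. That sum leaves out Cldn5, the tight junction claudin of vessels, whose spot on supporting cell layer replicate 2 was missing. Its normalized intensity was 1471 on supporting cell layer replicate 1, against 416 and 406 in the hair cell layer. Of 6 tested blood and macrophage markers 3 were called higher and 2 lower. The 4 with values on all arrays summed to 250 and 230.0 in the supporting cell layer. In the hair cell layer they summed to 211 and 233, and both sums leave out Csf1r and Cd68. Within them Ahsp, at 130 and 116, was detected in the supporting cell layer only. Aif1, at 171 and 173, was detected in the hair cell layer only. Of 2 tested melanocyte markers Mitf was called higher and Pmel lower. The sum of the 4 markers with values on all arrays, without Pmel, was 287 and 314 in the supporting cell layer. It was 39.1 and 42.8 in the hair cell layer. Mitf alone gave 258 and 271 of it in the supporting cell layer, while Tyr and Tyrp1 were not detected on any array. Pmel, a pigment granule gene, is missing from that sum for a contaminated spot. Its normalized intensity was 206 and 200.3 in the supporting cell layer and 2693 on hair cell layer replicate 2, and so went the other way from the sum. Of oligodendrocyte markers Enpp6 was higher by 1.20 ± 0.08, Olig1 did not pass, and Olig2 was undetected. By comparison, the 7 members with values on all arrays summed to 4672 and 4687 in the supporting cell layer. In the hair cell layer they summed to 4621 and 4673. Changes in opposite directions offset each other in these sums. Prx was at 1690 and 1657 in the supporting cell layer, against 867 and 886 in the hair cell layer. Pmp22, Cnp and Ncam1 went the other way.

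**Figure D4:**
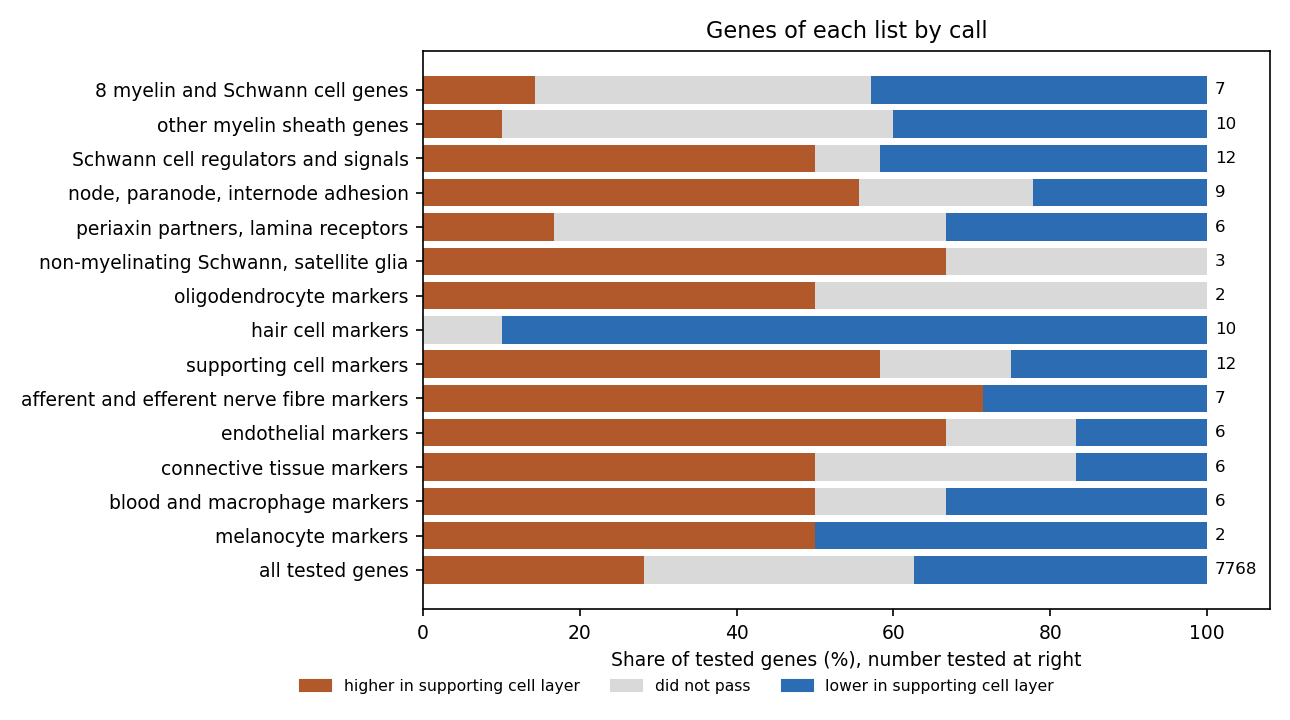
Share of tested genes in each list (in percent) by call in the supporting cell layer (higher, not passing or lower), with the number tested at the right and all tested genes in the bottom row. The 8 myelin and Schwann cell genes, with 1 higher and 3 lower of 7 tested, resemble the bottom row, and hair cell markers lie almost wholly on the lower side.

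The genes nearest in pattern were found by the root mean square difference of centred log2 values over the 4 arrays, among 5739 other genes detected on all of them. Prx lay nearest Mtus1 (0.0100) and Eif2b1 (0.0115). Pmp22 lay nearest Baz1b (0.00520) and Bop1 (0.0105), and Cnp lay nearest Sh3bgr (0.00920) and Atp5mpl (0.00950). With 4 arrays in 2 layers many genes share such a pattern.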

How the data were processed

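The scanner software was CodeLink Expression Analysis 4.0.0.23520, per the file headers. The authors deposited for each spot a raw intensity, which includes values below 0 and so had a background subtracted, a quality flag and a normalized intensity, the raw value over the median of its array. A deposited series table repeats the normalized intensity; its column for supporting cell layer replicate 2 equalled the scanner file in 3 of 35125 rows and was not used. The other 3 columns joined the platform's gene names to the probes. Symbols were updated through gene identifiers to GRCr8 RefSeq, which named 16912 of 33849 gene probes; 165 with several genes and 10 with conflicting names were left unnamed.

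Spots flagged contaminated, irregular or failed were left out. Raw intensities of gene probes were quantile-normalized, floored at 0.1 of the median and taken to log2 in R 4.3.3. Detected means flagged good or saturated. Probes detected on at least 2 of 4 arrays were tested with limma 3.58.1 (two-sided, no block, Benjamini-Hochberg over 16483 probes), and the script was tested on simulated data. For a probe undetected in a layer, the lower limit of fold uses the lowest detected intensity of each array. The p-value of such a probe comes from its background values and not from that limit. A gene was read at its brightest tested probe. The named genes were every probe of the 8 members, members of the lists, and the 2 nearest patterns. Some genes of the lists are not reported here. Members and lists were chosen with earlier results of these data known. The number of arrays limits the precision.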

Additional observations from a re-analysis of the deposited data

How the results depend on the processing

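Of 16483 tested probes 11112 (67.4%) were called. Without a filter on dim probes the number tested rose to 33842, since probes detected on fewer than 2 arrays were then tested too. The count was 6871 with the scanner software's normalized intensity and 6654 without a filter on dim probes, and 7181 to 9991 when 1 array was left out, lowest without hair cell layer replicate 1 (7181) and replicate 2 (7407). Of the 8 genes 4 were called. This became 2 with median scaling, 1 with the scanner software's normalized intensity and 2 without a filter on dim probes. In each of these settings a smaller share of all tested probes was called too. The members called also changed when 1 array was left out, and Mal was at 0.80 without supporting cell layer replicate 1. A fit without 1 array takes the lone array of that layer to vary like the other layer's, so counts of calls from such fits are not given. Counts rose to 12198 probes and 5 of the 8 genes, Mag added, with the intensity trend and robust prior, and to 12153 probes with an offset of 16. The cause was not tested. Of called genes, Prx, Pmp22, Cnp and Ncam1 kept their direction under every alternative that gave them a value. Mag reversed with the mean over its probes (-0.27), which adds an undetected probe. Without scaling, chosen after seeing the data as was 75th percentile scaling, Mag (-0.44), Mal (-0.32) and Gldn (-0.52) reversed, with the median of all tested probes at -0.67, and Mal reversed without supporting cell layer replicate 2 (-0.11). The replicate numbers are not said to pair the arrays, and same-numbered deviations correlated at -0.03. With the replicate block 8701 probes and 3 of the 8 genes were called, Pmp22 not among them (limma adjusted p = 0.0847). A normexp background correction was not run, since it needs local background values, which were not used here. Signals near background limit Mbp, Sh3tc2 and the size of the Ncam1 difference.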
